A study of Homo sapiens with 7 samples.

Results

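SLC2A3 and SLC2A14 are neighbouring genes on chromosome 12 that encode the glucose transporters GLUT3 and GLUT14. The locus was taken as all 5-hydroxymethylcytosine (5-hmC) peaks whose midpoint lay on chromosome 12 from 7.95 to 8.25 Mb (hg19). It held 175 of the 1873636 peaks in the 6 lists of the series, and these merged into 51 of 415474 regions. In the bounds used here, given to the nearest kb, SLC2A14 spans about 7.965 to 8.044 Mb and SLC2A3 about 8.071 to 8.089 Mb. Both genes lie on the minus strand, so each starts at its higher coordinate. The locus was selected on its position and chosen by its gain of peaks and covered length in the hypoxia lists over the normoxia list. These values are therefore a description and carry no test.

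The cells were SK-N-BE(2), an established neuroblastoma line with an amplified MYCN gene, labelled wild type and grown in RPMI medium with serum. They were kept at 21% oxygen (normoxia, 0 h) or at 1% oxygen (hypoxia) for 6, 12, 24, 48 or 72 h. Fragments with 5-hmC were tagged on that base, captured and sequenced, and 1 library per time gave 1 list of enriched intervals (peaks). Without replicate libraries no value has an error over samples, and times differ by library as well as by treatment. Normoxia at later hours was not analysed here, so low oxygen and time in culture cannot be told apart. Hours below are hours in hypoxia.

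GLUT3 is the high-affinity glucose transporter best known from neurons, and it is also found in many tumours. GLUT14 arose by duplication of the GLUT3 gene and is known mainly from testis. SLC2A3 is among the genes known to be switched on by hypoxia-inducible factors (HIF) when oxygen is low. 5-hmC is made from 5-methylcytosine by the TET enzymes, which use molecular oxygen, and in many cell types it is found in gene bodies and at enhancers. Peaks show where 5-hmC was detected, not how much RNA a gene made.

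5-hmC in mammalian cells lies mostly at CpG dinucleotides, so the sequence before a gene's start shows how many such sites it offers. Of the 2 genes, 1 had an entry in the RefSeq promoter table used here, SLC2A14, and SLC2A3 had none. The 250 bases before the SLC2A14 start in RefSeq (GRCh38.p14, chr12:7872916-7873165, minus strand) are printed 5′ to 3′, with capitals marking the match to a HIF core motif.
SLC2A14: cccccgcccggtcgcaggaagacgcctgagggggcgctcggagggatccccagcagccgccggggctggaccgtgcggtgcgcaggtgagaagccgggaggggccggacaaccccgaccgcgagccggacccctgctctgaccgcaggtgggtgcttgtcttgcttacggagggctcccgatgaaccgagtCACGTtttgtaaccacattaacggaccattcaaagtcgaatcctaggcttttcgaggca
This stretch holds 25 CpG, against a median of 11 over 35116 promoters of the same length, and 66% of its bases are G or C. The motifs ACGTG and GCGTG, the core of the hypoxia response element, were searched on both strands, where a match to one strand may overlap a match to the other. ACGTG matched 1 time, in reverse, from 59 bases before the start, and GCGTG did not match these letters. Of all promoters, 18.5% hold ACGTG and 32.2% hold GCGTG in the same window. These coordinates belong to another build than the peaks, so no peak was placed on this sequence. The start in that table lies inside the span of the gene, which has alternative starts, while all distances below are from the outer edge of each gene.

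The first question was how the number and extent of 5-hmC peaks at the locus changed with time in hypoxia. The locus held 17 peaks in normoxia, 19 after 6 h, 22 after 12 h, 31 after 24 h, 42 after 48 h and 44 after 72 h. The length covered by these peaks was 6.16 kb in normoxia, 7.56 kb after 6 h, 8.27 kb after 12 h, 12.6 kb after 24 h, 19.9 kb after 48 h and 20.3 kb after 72 h. Peaks thus covered 6.76% of the locus after 72 h, against 2.05% in normoxia. Each list held more than the one before it, and most of the increase fell between 12 and 48 h.

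The 72 h list held 352484 peaks over 192 Mb, against 285292 peaks over 147 Mb in normoxia, and the values were therefore also set against these totals. Per 100000 peaks of the list, the locus held 12.5 after 72 h (95% Clopper-Pearson interval 9.07 to 16.8), against 5.96 in normoxia (3.47 to 9.54). At the times between, the share per 100000 peaks was 6.49 after 6 h, 7.48 after 12 h, 9.93 after 24 h and 12.5 after 48 h. The share after 72 h was 2.09 times that in normoxia, with an exact interval for counting error alone of 1.17 to 3.91. At 48 h the ratio was also 2.09 (1.17 to 3.92). At 24 h it was 1.67 (0.894 to 3.21), at 12 h 1.26 (0.637 to 2.52) and at 6 h 1.09 (0.536 to 2.23). None of these intervals is a test of change, since the locus was chosen by its gain and each time has 1 library.

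Covered length relative to the totals was 1.14 times its 0 h value after 6 h, 1.28 after 12 h, 1.82 after 24 h, 2.65 after 48 h and 2.51 after 72 h. A ratio of at least 1.5 was called higher by size alone, which the locus passed at 24, 48 and 72 h. Among 6554 tiles of 300 kb over the genome, each with at least 2% covered, 0.915% were higher by this rule after 24 h, 4.84% after 48 h and 6.88% after 72 h. The median tile stood at 1.05 after 72 h. In the locus's own decile of tiles by mean covered length, 0.457% were higher after 24 h, 3.51% after 48 h and 3.81% after 72 h. Since the locus was chosen with its gain known, these shares give the background and nothing is read from the locus standing above it.

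The steps of the increase differed in size from those of the whole lists, though both grew most, in percent, between 24 and 48 h. Between 0 and 6 h covered length at the locus grew by 22.6% and that of the whole list by 7.13%. Between 12 and 24 h covered length at the locus grew by 53.0% and between 24 and 48 h by 57.5%, while the whole lists grew by 7.08% and 8.27%. Between 48 and 72 h the locus grew by 1.80% and the list by 7.44%, so relative to the totals the locus was slightly lower after 72 h than after 48 h. From 6 to 12 h the list shrank by 1.88% in covered length and the locus grew by 9.39%, which was 0.71 kb. Nothing is read from these steps, since gain was part of the choice and each time has 1 library.

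The stretches on both sides were compared to see how far the pattern reached. In the 300 kb directly above the locus, covered length was 6.81 kb after 72 h, against 4.12 kb in normoxia, a ratio of 1.26 relative to the totals. In the 300 kb directly below it, which is poor in peaks, covered length was 2.28 kb after 72 h, against 1.26 kb in normoxia, a ratio of 1.38. The stretch below had been at 1.57 times its 0 h value after 24 h and at 2.08 times after 48 h. Both values exceed the 1.5 used for calls, as those of the locus do. It held 6 peaks after 24 h and 8 after 48 h, against 4 in normoxia. Chromosome 12 as a whole stayed within 1% of the lists' growth, with a ratio of 1.01 after 72 h. With 1 library per time there is no test of the difference between the locus and these stretches.

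**Figure D1:**
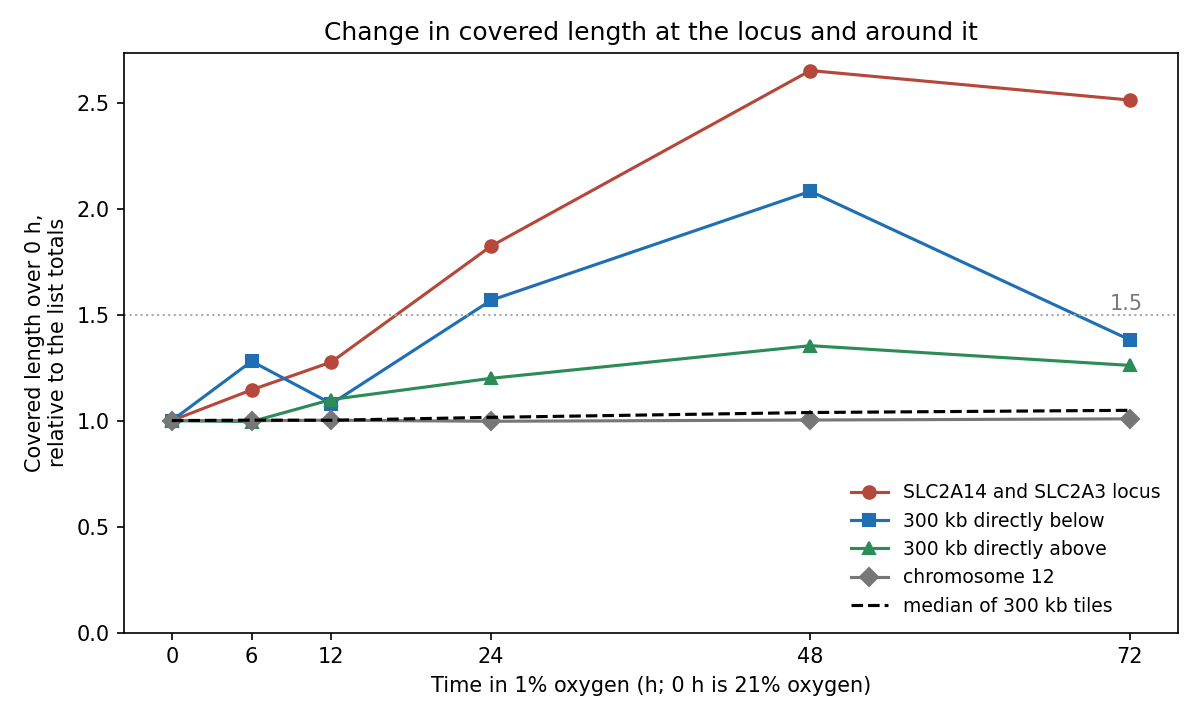
Covered length over its 0 h value, relative to the list totals (vertical axis, no unit), by hours in 1% oxygen (0 h is 21% oxygen), for the locus, both adjacent 300 kb stretches, chromosome 12 and the median of 6554 tiles of 300 kb. Each point is 1 library. The locus reaches 2.65 after 48 h and 2.51 after 72 h, while the tile median stays at or below 1.05, and the dotted line marks the ratio of 1.5 used for calls.

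The peaks nearest to the bounds show how much the choice of the edges matters. At the lower edge the first peak inside lay 15.6 to 15.7 kb from it in every list, and the nearest peak outside lay 32.1 to 64.5 kb away. At the upper edge the nearest peak inside lay 7.90 to 18.7 kb from it. The nearest outside lay 0.855 kb away in the 0 h list, a peak of 226 bp, and up to 44.4 kb away in the others.

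The second question was where in the locus the peaks lay. The genes, the interval between them and the flanks differed in how much they gained. Of the 14.1 kb added between 0 and 72 h, the 161 kb beyond the start of SLC2A3 took 79.6%, on 53.7% of the length. SLC2A14 took 10.3% on 26.3% of the length, SLC2A3 6.70% on 6% of the length, and the interval between the genes 3.34% on 9% of it. The 15 kb below SLC2A14 held no peak in any list.

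**Figure D2:**
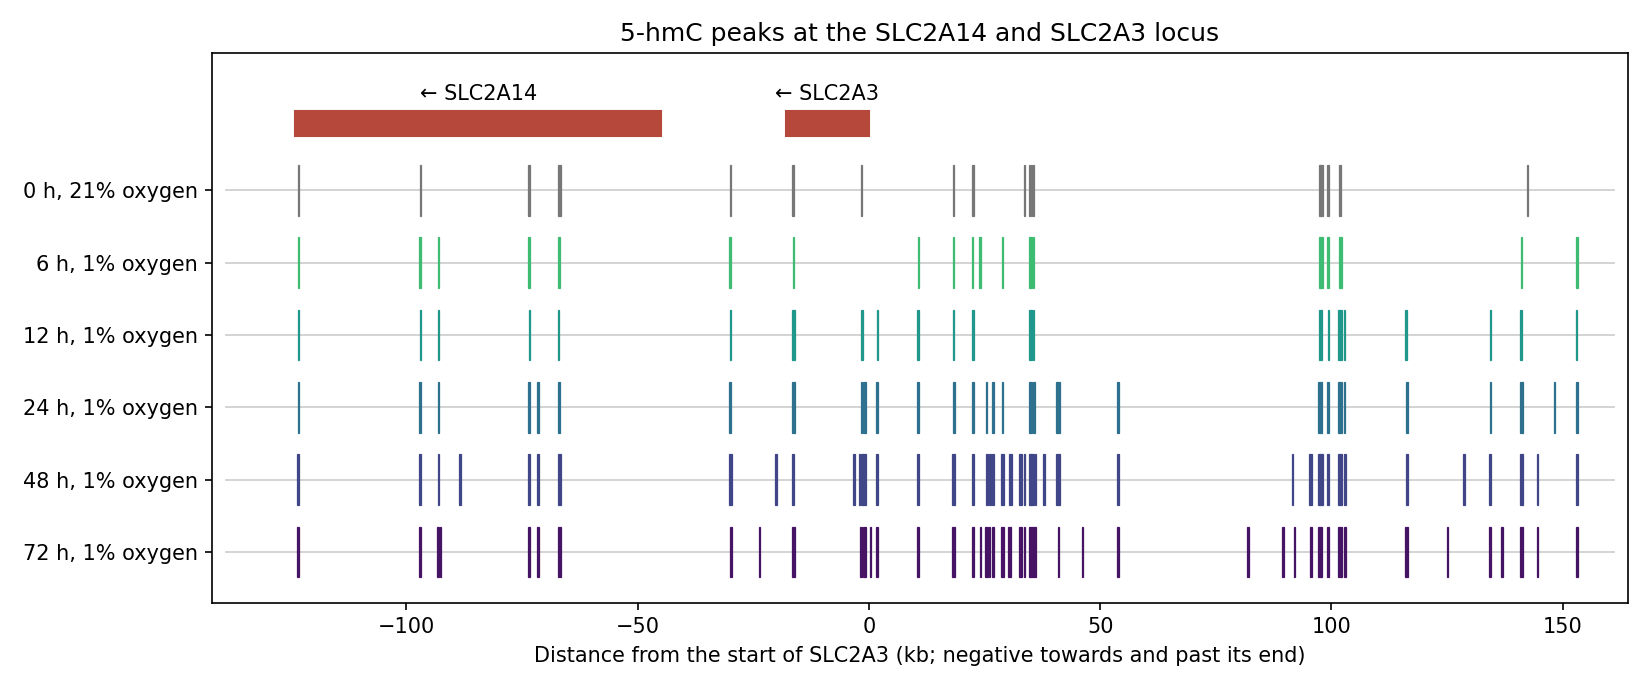
Peaks of each list (rows, 0 h at the top) by distance in kb from the start of SLC2A3, with both genes as bars above and arrows showing that they read to the left. Each vertical mark is 1 peak, with an outline that slightly widens the narrowest. The marks become denser mainly to the right of SLC2A3, with 32 peaks after 72 h against 10 in normoxia.

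SLC2A3, the gene for GLUT3, had 2 peaks in normoxia, 1 after 6 h, 2 after 12 h, 3 after 24 h, 4 after 48 h and 3 after 72 h. Covered length in the gene was 646 bp in normoxia, 430 bp after 6 h, 704 bp after 12 h, 1365 bp after 24 h, 2177 bp after 48 h and 1592 bp after 72 h. It was lowest after 6 h and highest after 48 h, and all 3 times from 24 h on exceeded the earlier ones. Relative to the totals, this was 0.621 times the 0 h value after 6 h, 1.04 after 12 h, 1.88 after 24 h, 2.76 after 48 h and 1.88 after 72 h. On 3 peaks after 72 h against 2 in normoxia, the exact interval of the ratio of peak shares was 0.139 to 14.5. Lower by the inverse of the rule was thus the 6 h list, as were 8.66% of 20 kb tiles at that time. Of the 73001 tiles of 20 kb, 12.0% were higher by the same rule after 24 h, 16.6% after 48 h and 18.6% after 72 h. Ratios of at least 1.5 were thus common in windows about as short as the gene. The shares of tiles that reached the gene's own ratios were not computed.

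Within SLC2A3 the gain lay at its start. The region chr12:8086853-8088373 has its middle 1.39 kb inside the gene from the start. It held 274 bp of peaks in normoxia, none after 6 h, 268 bp after 12 h, 894 bp after 24 h, 1443 bp after 48 h and 1104 bp after 72 h. The peak of 0 h was narrow and missing after 6 h, and the region became one of the longest of the locus from 24 h on. At the other end of the gene, chr12:8072430-8072951 was present in every list, with 372 bp in normoxia, 430 bp after 6 h, 436 bp after 12 h, 471 bp after 24 h, 435 bp after 48 h and 488 bp after 72 h. That region changed far less than the one at the start, at 1.31 times its 0 h length after 72 h, against 4.03 times.

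The other regions within 5 kb of the SLC2A3 start were absent in normoxia. The region chr12:8090511-8090952, 1.73 kb beyond the start, was present from 12 h on, with 242 bp after 12 h, 386 bp after 24 h, 431 bp after 48 h and 390 bp after 72 h. The region chr12:8085647-8085945 was seen in the 48 h list alone, with 299 bp. The region chr12:8089177-8089431, of 255 bp, was seen in the 72 h list alone. Its middle is 0.304 kb beyond the start, which is within the rounding of the gene's bounds. In these 4 regions together, peaks covered 274 bp in normoxia, none after 6 h, 510 bp after 12 h, 1280 bp after 24 h, 2173 bp after 48 h and 1749 bp after 72 h.

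SLC2A14, the gene for GLUT14, had 4 peaks in normoxia, 5 after 6 h, 5 after 12 h, 6 after 24 h, 7 after 48 h and 7 after 72 h. Covered length was 1391 bp in normoxia, 1898 bp after 6 h, 1518 bp after 12 h, 2249 bp after 24 h, 3133 bp after 48 h and 2850 bp after 72 h. The gene held least in normoxia and most after 48 h. Relative to the totals, the ratio to 0 h was 1.44 after 24 h, 1.85 after 48 h and 1.56 after 72 h. Of 21959 tiles of 80 kb, 5.46% were higher by the same rule after 24 h, 10.4% after 48 h and 12.9% after 72 h. The median of these tiles stood at 1.01 after 24 h, 1.03 after 48 h and 1.05 after 72 h. In the gene's own decile of tiles by mean covered length, the median stood higher, at 1.09, 1.21 and 1.26 for the same times. The exact interval of the ratio of peak shares after 72 h was 0.360 to 6.60. With peaks of at least 500 bp alone, the ratio after 72 h was 0.889, so the direction relative to the totals turned round. That value rested on 1 peak in each list, of 590 bp in normoxia and 722 bp after 72 h. The length covered by such peaks in the gene thus grew, but by less than in the whole lists.

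Of the 8 regions in SLC2A14, 4 were present in all 6 lists, where 46.8% of all merged regions were. The longest of the 4, chr12:8021707-8022428, held 590 bp in normoxia, 540 bp after 6 h, 317 bp after 12 h, 468 bp after 24 h, 660 bp after 48 h and 722 bp after 72 h. It was narrowest after 12 h and 1.22 times its 0 h length after 72 h. The region chr12:7995710-7996106 had no normoxia peak and was found in each of the 5 hypoxia lists, with 258 to 397 bp. The region chr12:8017161-8017643 appeared at 24 h and stayed, with 372 bp after 24 h, 483 bp after 48 h and 404 bp after 72 h. The region chr12:7965437-7965849, in every list, lies within 1 kb of the gene's end in the bounds used.

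Around the outer edge taken as the start of SLC2A14 no list had a peak. The region nearest to it lay 21.9 kb inside the gene, and the nearest on the other side 15.1 kb away. The gap between them, chr12:8022429-8058788, was the longest of the locus, at 36.4 kb. The outer edge taken as the start of SLC2A3 differed in this, with 4 regions within 5 kb, while that of SLC2A14 had 0. Peaks were not counted around the RefSeq start of SLC2A14 inside the gene, so the contrast holds for the outer edges only. Reads from sequence that these duplicated genes share may map to both or be dropped, and how the submitters treated such reads is not given in the sources used here.

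Per kb of sequence, covered length was 88.4 bp in SLC2A3 and 36.1 bp in SLC2A14 after 72 h, against 35.9 bp in SLC2A3 and 17.6 bp in SLC2A14 in normoxia. At 48 h these covered lengths per kb were 121 bp in SLC2A3 and 39.7 bp in SLC2A14. SLC2A3 was the more densely covered gene in 5 of the lists, while after 6 h the genes stood at 23.9 bp in SLC2A3 and 24.0 bp in SLC2A14. The interval between the genes was the least covered of the parts that held peaks, with 26.9 bp per kb after 72 h, against 9.44 bp per kb in normoxia. It held 1 peak up to 24 h and 2 afterwards.

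**Figure D3:**
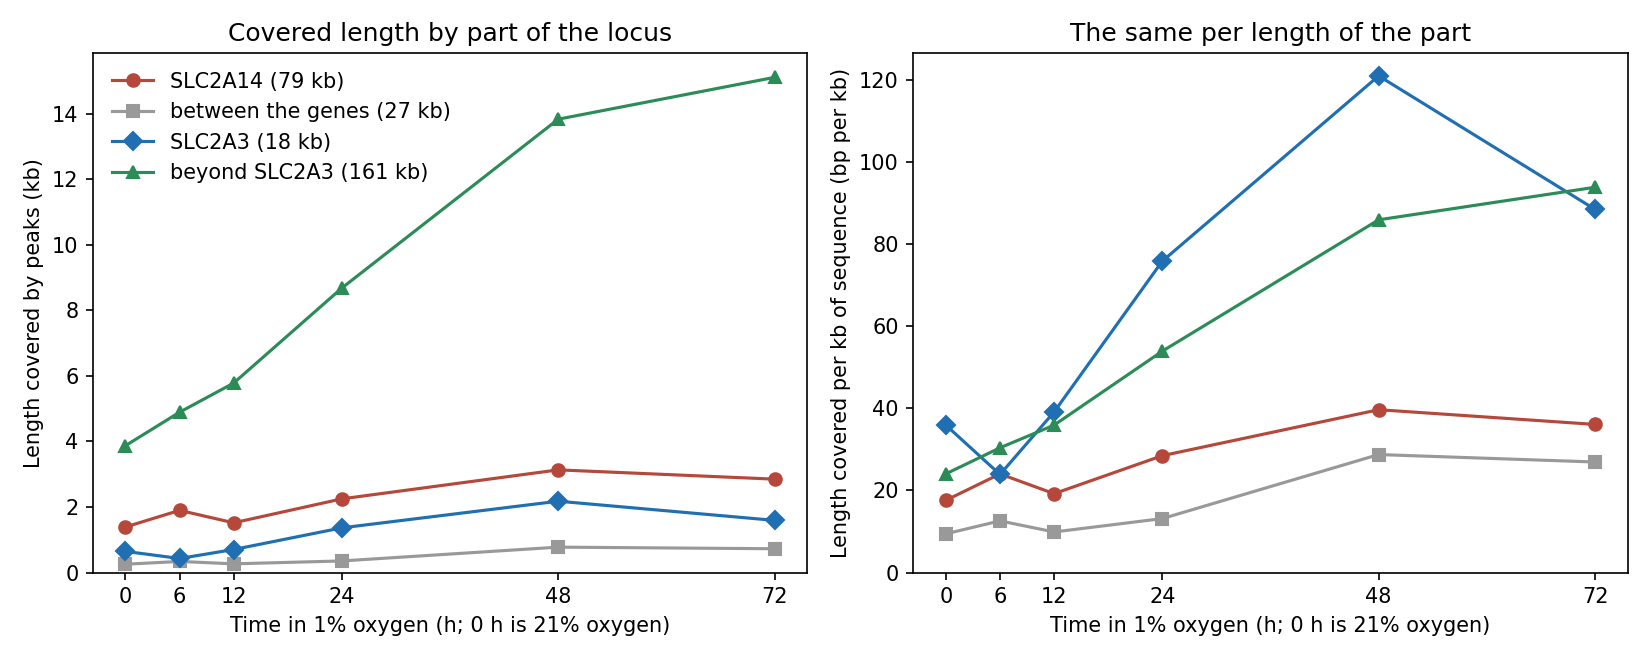
Left, length covered by peaks in kb, and right, the same in bp per kb of sequence, by hours in 1% oxygen (0 h is 21% oxygen), for SLC2A14, the interval between the genes, SLC2A3 and the 161 kb beyond the SLC2A3 start. Each point is 1 library. The stretch beyond SLC2A3 holds most of the covered length, with 15.1 kb after 72 h against 3.87 kb in normoxia, and SLC2A3 has the highest density after 48 h.

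The stretch beyond the SLC2A3 start, upstream of the gene, held 10 peaks in normoxia, 12 after 6 h, 14 after 12 h, 21 after 24 h, 29 after 48 h and 32 after 72 h. Its covered length was 3.87 kb in normoxia, 4.89 kb after 6 h, 5.78 kb after 12 h, 8.68 kb after 24 h, 13.8 kb after 48 h and 15.1 kb after 72 h. Of the parts that held peaks, it alone had more covered length at every time than at the one before. Relative to the totals, covered length there was 2.98 times its 0 h value after 72 h. The exact interval of 1.24 to 5.91 belongs to the ratio of peak shares, not to that of covered length. It covers counting error alone and is no test, since the locus was chosen by its gain. In the order of RefSeq genes (GRCh38.p14), the next protein-coding genes on this side are FOXJ2, a forkhead transcription factor, C3AR1, the receptor for complement fragment C3a, and NECAP1, a protein of clathrin-coated vesicles. A long non-coding RNA gene and pseudogenes come before them in that order. Their hg19 positions were not used here, so no peak is assigned to any of them. Since these genes may lie within the stretch, a peak beyond the SLC2A3 start is not thereby a peak of SLC2A3.

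The largest gain lay in the 20 kb window from 8.11 to 8.13 Mb, 21 to 41 kb beyond the SLC2A3 start. Its peaks covered 1.54 kb in normoxia, 1.83 kb after 6 h, 1.44 kb after 12 h, 3.02 kb after 24 h, 5.92 kb after 48 h and 6.26 kb after 72 h. The lists up to 12 h lay within 1.44 to 1.83 kb, and those of 48 and 72 h were the highest. This window took 33.4% of the locus's gain on 6.67% of its length, and was picked because of these values. Without it, the ratio of the locus after 72 h was 2.32, against 2.51 with it.

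The window held 12 merged regions, of which 3 were present in normoxia, 4 after 6 h, 2 after 12 h, 6 after 24 h, 11 after 48 h and 11 after 72 h. Its core was chr12:8123544-8125201, the region with most covered length in the locus. This held 939 bp in normoxia, 932 bp after 6 h, 1034 bp after 12 h, 1137 bp after 24 h, 1491 bp after 48 h and 1467 bp after 72 h. At 0 h these bases were split over 3 peaks, and after 72 h they formed 1 peak of 1467 bp, the widest of the locus in any list. Covered length of the region after 72 h was thus 1.56 times that in normoxia, on fewer peaks.

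Of the 5 regions of the locus with the largest difference between 72 and 0 h, 4 lay in this window and had no 0 h peak. The region chr12:8121413-8122146 had 697 bp after 48 h and 719 bp after 72 h, and chr12:8119079-8119884 had 643 bp after 48 h and 675 bp after 72 h. Both were absent at every earlier time. The region chr12:8114031-8114690 had 317 bp after 24 h, 286 bp after 48 h and 660 bp after 72 h. The region chr12:8117526-8118176 had 282 bp after 6 h, none after 12 h, 285 bp after 24 h, 648 bp after 48 h and 607 bp after 72 h. The fifth, with a difference of 830 bp, was the region at the SLC2A3 start described above.

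A further pair of long regions lay 97.6 and 102 kb beyond the SLC2A3 start. The nearer one, chr12:8185979-8187219, held 930 bp in normoxia, 955 bp after 6 h, 797 bp after 12 h, 873 bp after 24 h, 1210 bp after 48 h and 927 bp after 72 h. It was thus as long after 72 h as in normoxia, and it was 1 of the 2 regions with less covered length after 72 h, by 3 bp. The region chr12:8190429-8191218 held 522 bp in normoxia, 677 bp after 6 h, 701 bp after 12 h, 726 bp after 24 h, 688 bp after 48 h and 767 bp after 72 h. Its 5 hypoxia values all exceeded the normoxia value.

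The third question was which regions were kept, gained or lost. Of the 51 regions, 43 had a peak after 72 h, against 15 in normoxia. Gained after 72 h against 0 h were 29 regions, or 56.9% of the locus, where 24.3% of all merged regions were gained. Gained regions numbered 18 of 44 with the same number of peaks per list, widest first, and 10 of 16 with peaks of at least 500 bp. The shares of all merged regions gained under these 2 choices were not computed. Lost was 1 region, or 1.96%, where 6.41% of all merged regions were lost. Nothing is read from these shares, since the same contrast stood behind the choice of the locus. The lost region, chr12:8231168-8231393, was 226 bp wide, the smallest width in the 0 h list.

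Gained regions numbered 6 after 6 h, 8 after 12 h, 15 after 24 h, 25 after 48 h and 29 after 72 h, where the shares of all regions gained were 11.4%, 11.3%, 14.4%, 19.9% and 24.3% in that order of times. Regions lost against 0 h numbered 3 after 6 h, 2 after 12 h, 2 after 24 h, 1 after 48 h and 1 after 72 h, where the shares of all regions lost were 8.74%, 8.79%, 7.35%, 6.52% and 6.41%. At 6 and 12 h the locus had 11.8% and 15.7% of its regions gained, near those of all regions.

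The regions without a 0 h peak were followed by the list in which each was first seen. Of these 36 regions, 27 were first seen from 6 to 48 h, and 18 of the 27 stayed present from their first list to 72 h (66.7%), where over all merged regions 32.9% did. Kept to 72 h were 4 of the 6 regions first seen at 6 h, 4 of 4 at 12 h, 5 of 6 at 24 h and 5 of 11 at 48 h. Over all merged regions the shares kept were 26.3%, 23.5%, 33.3% and 51.2% for the same 4 times. The share first seen at 48 h and kept was thus not above that of all regions, and nothing is read from the others, since gain was part of the choice. A further 9 regions were seen in the 72 h list alone. Among the 27, 6 were seen in the 48 h list alone and 1 in the 24 h list alone. Regions seen in a single list, 17 in all with the lost one, were 226 to 396 bp wide, and they made up 33.3% of the locus, against 17.9% of all regions.

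Regions without a normoxia peak supplied 11.4 kb, or 56.5%, of the covered length after 72 h, where over the genome such regions supplied 17.9%. The others came from sites already marked in normoxia. Present in all 6 lists were 12 regions (23.5% of the locus, against 46.8% of all regions). Together they covered 5.42 kb in normoxia, 5.68 kb after 6 h, 5.45 kb after 12 h, 6.31 kb after 24 h, 7.70 kb after 48 h and 7.35 kb after 72 h. All 12 were longer after 48 h than in normoxia, and 11 were longer after 72 h. Their sum after 72 h was 1.36 times that in normoxia, where the same sum over all 194585 such regions was 1.13 times.

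Of the 14 regions with peaks at both 72 and 0 h, 5 were wider after 72 h by at least 1.5 times, where 16.4% of all such regions were, in the same contrast that stood behind the choice. None of the 14 was narrower by that factor, where 2.52% of all such regions were. Of the peaks, 500 bp or more was reached by 3 in normoxia, 4 after 6 h, 4 after 12 h, 6 after 24 h, 10 after 48 h and 13 after 72 h. They made up 29.5% of the locus's peaks after 72 h, against 17.6% in normoxia, and 37.0% of the whole list after 72 h, against 33.3% in normoxia. The median peak of the locus measured 397 bp after 72 h, against 313 bp in normoxia.

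**Figure D4:**
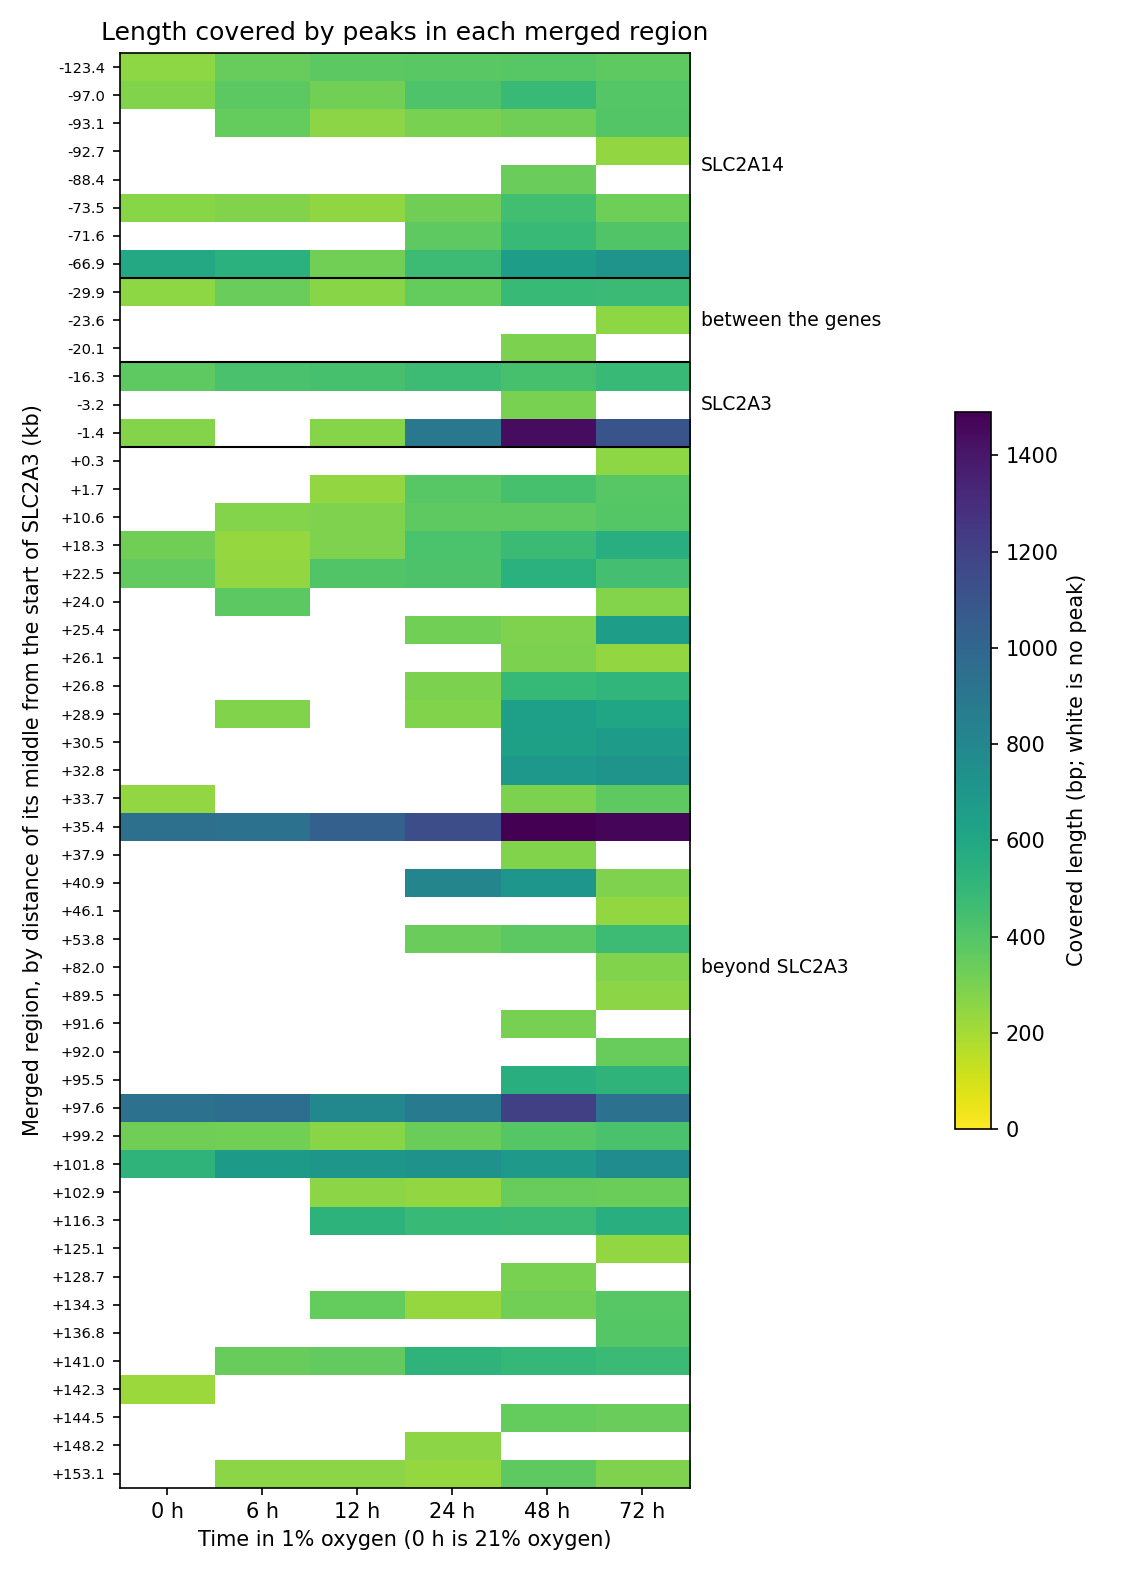
Covered length in bp (colour, white is no peak) of the 51 merged regions (rows, labelled by distance in kb from the SLC2A3 start) at each time (columns). Lines part SLC2A14, the interval between the genes, SLC2A3 and the stretch beyond. White cells give way to colour in rows of each part, among them several rows 25.4 to 40.9 kb beyond the start from 24 h on. At every time 12 rows are coloured.

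The 2 lists at the end of the course were the fullest but not the same. Of the regions present after 48 h, 33 were also present after 72 h and 6 were not, and 10 regions were present after 72 h and not after 48 h. Between 12 and 24 h 7 regions appeared and 0 disappeared, and between 24 and 48 h 12 appeared and 1 disappeared. The shares of all merged regions that appeared or disappeared in these steps were not computed, so nothing is read from these counts. Depth of sequencing is unknown, and a longer list can hold more narrow peaks with no change in the cells. With the same number of peaks per list, widest first, the covered length of the locus relative to the totals was 2.82 times its 0 h value after 48 h and 2.38 after 72 h, against 2.65 and 2.51 with the lists whole. That choice evens out list length but not depth.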

How the data were processed

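SK-N-BE(2) DNA was sheared, 5-hmC was tagged with an azide glucose and biotin, and tagged fragments were captured and sequenced, per the labels' protocols. The submitters' processing notes name BWA 0.7.17, MACS2, HTSeq and hg19, without role or order. The deposited lists give a peak's chromosome and its 2 ends, with no height, fold or p-value. Whether the input served as control is not given in the sources used here, and the input was not analysed here.

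Peaks were assigned by midpoint. Peaks of all lists overlapping by at least 1 bp were merged into regions. Covered length was divided by that of the whole list. A call is by size alone, at 1.5 times or its inverse. Tiles of 300, 80 and 20 kb on chromosomes 1 to 22 and X entered with at least 2% covered on the mean of the lists and a peak at 0 h. Intervals of shares are Clopper-Pearson, and those of ratios are exact conditional binomial intervals. Both cover counting error only, and read depth is unknown.

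Regions described in full were those within 5 kb of a gene's start, the 5 with most covered length over all lists, and the 5 with the largest difference between 72 and 0 h in each direction. The other regions named, 1 in SLC2A3 and 3 in SLC2A14, were named after their values were seen. The locus, its members and these rules were chosen with earlier results of these data known. Other glucose transport genes were listed but not analysed here, since no annotation of hg19 was used. Merging, calls and tiles were tested on simulated lists of 6000 sites, where 6 of 6 quantities came back exactly. Computations used SciPy 1.17.1, NumPy 2.4.6 and pandas 2.3.3 under Python 3.11.15, and plots Matplotlib 3.10.9.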

Additional observations from a re-analysis of the deposited data

How the results depend on the processing

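Of 91 alternatives, 85 stayed within the counting interval, or for counts within 1.5 times, 5 moved beyond and 1 reversed a called direction. For covered length the interval used was that of the ratio of peak shares. These intervals are wide at the small numbers of peaks here, so staying within them says little. Counting by overlap with the bounds in place of midpoint changed no value, since no peak crossed an edge. The covered length of the locus at 72 h, 2.51 times 0 h relative to the totals, ranged from 2.19 with 6 h as reference to 3.31 with peaks of at least 500 bp, and was at least 1.5 in all 8 alternatives, as it was at 24 and 48 h. The share of peaks at 72 h, 2.09 times 0 h, was 1.39 in the genes and the interval between them alone, without the stretch beyond SLC2A3. In the genes and interval it was 1.31 at 24 h and 1.57 at 48 h. The share of peaks was at least 1.5 in 4 of 6 alternatives at 24 h, 6 of 6 at 48 h and 5 of 6 at 72 h. Regions gained at 72 h, 29 of 51, numbered 10 of 16 with peaks of at least 500 bp and 18 of 44 with the 285292 widest peaks of each list. Regions lost, 1 in all, numbered 0 with peaks of at least 500 bp and 0 with peaks of at least 242 bp, the largest of the lists' narrowest widths, an alternative added after seeing the data. The 51 merged regions numbered 16 with peaks of at least 500 bp. These choices remove narrow peaks by construction. The reversal was that of SLC2A14, whose ratio at 72 h, 1.56, was 0.889 with peaks of at least 500 bp. In that gene the choice left 1 peak at 0 h, of 590 bp, and 1 at 72 h, of 722 bp. For SLC2A3 and the interval between the genes that choice left no 0 h peak and gave no ratio. For SLC2A3 the ratio at 72 h, 1.88, was 2.64 with the genes widened by 5 kb, which takes in the region just beyond its start. No paired analysis was possible because each time has 1 library.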
